A study of Rattus norvegicus with 19 samples.

Results

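The genes described here are 10 enzymes of bile acid synthesis: Cyp7a1, Cyp8b1, Cyp27a1, Cyp7b1, Hsd3b7, Akr1d1, Amacr, Acox2, Slc27a5 and Baat. They were taken by gene symbol from the array annotation, and all 10 were measured, by 11 probe sets, of 14217 genes and 31042 probe sets in all. The levels are log2 signals from livers on postnatal day 4, so a difference of 1 is a doubling. Wistar Han dams, Crl:WI (Han), had been gavaged daily from gestation day 6 with corn oil alone (vehicle, 5 arrays) or with DE-71 in corn oil at 0.1 mg/kg (5 arrays), 15 mg/kg (4 arrays) or 50 mg/kg (5 arrays). DE-71 is a commercial flame retardant mixture of polybrominated diphenyl ethers. All 19 samples share the strain, the corn oil and the label female. The labels leave unsaid whether a liver was a pup's or a dam's, and whether each array stands for a litter of its own.

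The liver turns cholesterol into bile acids, detergents that carry lipids into bile and help absorb fat from milk and food. In the classic route Cyp7a1 hydroxylates cholesterol at the rate-limiting step, and Cyp8b1 adds the hydroxyl group that makes cholic acid. The alternative route starts with Cyp27a1 in mitochondria and goes on through Cyp7b1. Hsd3b7 and Akr1d1 then change the steroid ring, Amacr and Acox2 prepare the side chain for shortening in peroxisomes, and Slc27a5 and Baat join the product to coenzyme A and then to taurine or glycine. Bile acids returning to the liver repress Cyp7a1 through the receptor FXR (Nr1h4) and its target SHP (Nr0b2).

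None of the 10 enzymes passed the threshold in any comparison of doses. The widest differences from vehicle were a lower Slc27a5 at 50 mg/kg and a Cyp7a1 that was lower at 0.1 and higher at 15 and 50 mg/kg, and all had adjusted p-values of at least 0.223. Cyp7a1 ranged over 2.71 log2 units across the 19 arrays, from 6.49 to 9.21. Its lowest 2 values came from 2 nearly identical arrays that also carried kidney transcripts. Another array with kidney transcripts, 50 mg/kg replicate 3, read 8.84, but its mean of kidney markers was 7.08, against 10.06 and 10.08 in those 2 arrays. The array 0.1 mg/kg replicate 5, without raised kidney markers, read 6.80. The part of kidney transcripts in these values was not tested. Other genes of bile acid handling did rise at 50 mg/kg, among them the efflux pumps Abcc2 and Abcc3.

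Liver and label checks bear on these values. Alb, the serum albumin gene, lay between 15.01 and 15.06 on all 19 arrays, and the mean of 7 of 8 hepatocyte markers between 14.51 and 14.59. Both lie close to the highest value of any probe set (15.06), so they cannot show that the share of hepatocytes was equal. Afp, a fetal serum protein, read 14.47 to 14.70. Xist, expressed from an inactive X chromosome, read 3.88 to 4.29, and 2 Y-linked genes read 9.55 to 10.07 (Eif2s3y) and 9.46 to 10.03 (Uty). These readings go against the label female on all arrays, and so against a dam's liver. Cyp1a1, a target of dioxin-like compounds, read 14.06 in the library labelled 0.1 mg/kg replicate 1, against 7.19 to 8.42 in the other 4 of that group. It read 7.10 to 8.36 in vehicle, 13.16 to 14.17 at 15 mg/kg and 14.11 to 14.30 at 50 mg/kg. Vehicle replicate 2 and 0.1 mg/kg replicate 2 were nearly the same array: the SD of their differences was 0.128 over 31042 probe sets, against 0.197 to 0.619 in the other 170 pairs. Only 1 probe set differed between them by over 1 log2 unit, against 78 to 1967 in other pairs. The same pair had a mean of 10.06 and 10.08 over the 4 measured of 5 kidney markers, where 50 mg/kg replicate 3 had 7.08 and the other 16 arrays at most 4.39. Slc12a1, a kidney transporter, read 11.94 and 11.97 in the pair and 3.42 to 4.31 on the 16 arrays. The mean of 10 pancreas markers was 8.64 in both, 8.08 in 15 mg/kg replicate 5, 7.45 in vehicle replicate 4 and at most 5.27 elsewhere. Over 4 measured of 5 bile duct markers the means were 8.97 in 15 mg/kg replicate 5, 8.39 and 8.40 in the pair and at most 6.75 elsewhere, and over 4 of 5 intestine markers 8.22 in 15 mg/kg replicate 5 and at most 5.64 elsewhere. Skeletal muscle markers (9 of 10) were highest in vehicle replicate 1 (11.30), 50 mg/kg replicates 2 and 3 (9.52 and 9.18) and vehicle replicate 5 (8.98). Cell types of the liver itself varied too. Over the 19 arrays erythroid markers (6 of 7) had means of 9.03 to 11.04, and stellate cell markers (5 of 5) 8.64 to 11.04. Macrophage markers (4 of 5) had 9.83 to 10.66, and sinusoidal endothelium (2 of 4) 10.35 to 11.11. Because the pair lies across 2 groups and may not be 2 separate livers, the difference of each enzyme at 50 mg/kg is given with and without it.

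**Figure D1:**
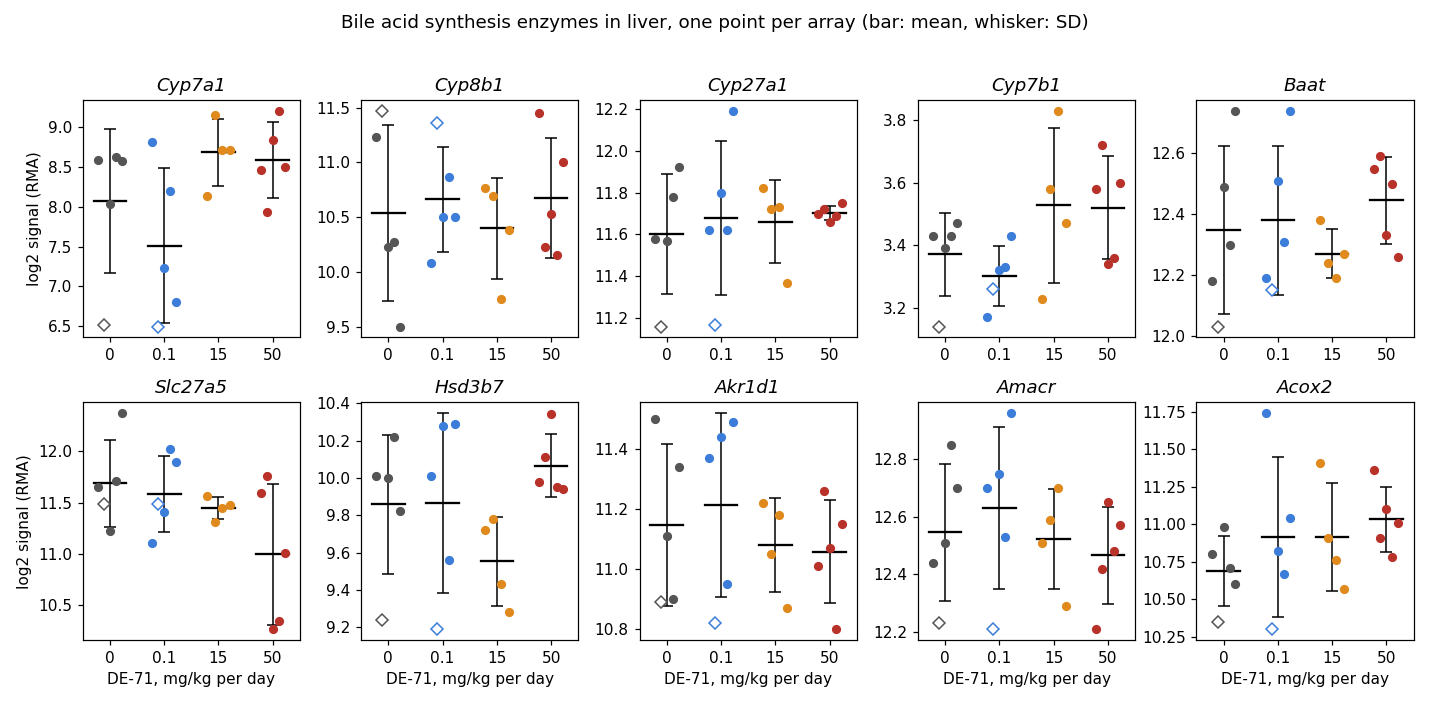
Log2 signal of the 10 enzymes (y axis, a separate scale for each gene) by dose group (x axis), 1 point per array with the group mean as a bar and the SD as a whisker; open diamonds are vehicle replicate 2 and 0.1 mg/kg replicate 2. In the 4 comparisons made, the groups overlap for every gene, except that Hsd3b7 at 50 mg/kg lies above all 15 mg/kg arrays, and the diamonds are the lowest 2 points of Cyp7a1.

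Cyp7a1 (probe set 1368458_at), the rate-limiting enzyme of the classic route, had the widest spread of the enzymes between the 5 vehicle arrays, through replicate 2: without it the vehicle SD was 0.28, below the 0.711 of Cyp8b1. Its vehicle values were 8.59, 6.51, 8.04, 8.63 and 8.58 in replicates 1 to 5. At 0.1 mg/kg it read 8.82, 6.49, 7.23, 8.20 and 6.80. Replicates 2 to 5 at 15 mg/kg read 8.14, 9.16, 8.72 and 8.72. The 0.1 mg/kg group was thus split, with 3 arrays below every vehicle array other than replicate 2. The 50 mg/kg values were 8.47, 7.93, 8.84, 9.21 and 8.50, which overlap all other groups. The means were 8.07 ± 0.906 in vehicle (SD, n = 5), 7.51 ± 0.976 at 0.1 mg/kg (n = 5), 8.69 ± 0.418 at 15 mg/kg (n = 4) and 8.59 ± 0.473 at 50 mg/kg (n = 5). From lowest to highest the groups therefore ran 0.1 mg/kg, vehicle, 50 mg/kg and 15 mg/kg, and no neighbours in that order differed beyond their spread.

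Adjusted p-values are limma's, by Benjamini-Hochberg over 31042 probe sets, with 0.05 as the threshold. Cyp7a1 at 50 mg/kg was 0.52 above vehicle (SE 0.439, 95% interval -0.41 to 1.44, adjusted p = 0.599). That interval runs from 0.755 to 2.72 times the vehicle level, so neither a moderate fall nor a rise of more than 2-fold lies outside it. Cyp7a1 was also 0.62 above vehicle at 15 mg/kg (SE 0.466, -0.36 to 1.60, adjusted p = 0.655). At 0.1 mg/kg it was 0.56 below (-0.56, SE 0.439, -1.49 to 0.36, adjusted p = 1), and between -0.95 and -0.31 with any 1 array left out. All 3 comparisons share the vehicle arrays. Without the pair of arrays with kidney transcripts, the vehicle mean was 8.46 ± 0.28 (n = 4), and the differences at 50 and 15 mg/kg shrank to 0.13 (adjusted p = 0.904) and 0.23 (adjusted p = 0.858). The higher levels at both upper doses therefore rest on vehicle replicate 2. The lower level at 0.1 mg/kg was -0.70 without the pair (adjusted p = 0.817). A test of any difference among the 4 groups gave F = 2.89 for Cyp7a1 (unadjusted p = 0.0645, adjusted p = 0.51). In a bulk sample, fewer hepatocytes and less RNA of a gene per hepatocyte cannot be told apart.

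Cyp8b1 (1368435_at), which sets the share of cholic acid, varied as widely within the groups as between them. In vehicle it read 11.23, 11.47, 10.23, 10.27 and 9.50. At 0.1 mg/kg it read 10.08, 11.36, 10.50, 10.87 and 10.50. The 15 mg/kg values were 10.77, 10.69, 9.75 and 10.38. The highest and the lowest value of all 19 arrays were both vehicle arrays, and the 50 mg/kg values (11.45, 10.23, 10.53, 10.15 and 11.00) fell between them. The means were 10.54 ± 0.807, 10.66 ± 0.48, 10.40 ± 0.462 and 10.67 ± 0.549 in order of dose (SD; n = 5, 5, 4 and 5). Cyp8b1 differed from vehicle by 0.13 at 50 mg/kg (SE 0.35, -0.60 to 0.87, adjusted p = 0.882) and by -0.15 at 15 mg/kg (adjusted p = 0.9). Without the pair, in which Cyp8b1 read 11.47 and 11.36, the differences were 0.36 (adjusted p = 0.655) and 0.09 (adjusted p = 0.947). Without vehicle replicates 1 and 2, its highest vehicle arrays, and 0.1 mg/kg replicate 1, Cyp8b1 at 50 mg/kg was 0.67 above vehicle (SE 0.315, unadjusted p = 0.0502, adjusted p = 0.425).

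Cyp27a1 (1387914_at), the mitochondrial enzyme that opens the alternative route, had nearly equal group means of 11.60 ± 0.288 in vehicle, 11.68 ± 0.37 at 0.1 mg/kg, 11.66 ± 0.196 at 15 mg/kg and 11.70 ± 0.0324 at 50 mg/kg (SD). The 50 mg/kg arrays lay within a narrow band, at 11.70, 11.72, 11.66, 11.69 and 11.75. The vehicle arrays read 11.58, 11.16, 11.57, 11.78 and 11.92 and enclosed that band. Its difference at 50 mg/kg was 0.10 (SE 0.155, -0.22 to 0.43, adjusted p = 0.783), and -0.0081 without the pair. The 95% interval of the difference corresponds to 0.857 to 1.35 times the vehicle level, the narrowness of which contrasts with that of Cyp7a1.

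Cyp7b1 (1388188_at), the oxysterol hydroxylase that follows Cyp27a1, lay between 3.14 and 3.83 on all arrays, close to the lowest value of any probe set (2.40), where signals hold little information on change. The vehicle values were 3.43, 3.14, 3.39, 3.43 and 3.47, and the 50 mg/kg values 3.58, 3.72, 3.34, 3.36 and 3.60. The difference of 0.15 (SE 0.103, adjusted p = 0.519; 0.09 without the pair) was within the spread of these arrays, and 15 mg/kg gave 0.15 too (SE 0.11, adjusted p = 0.634).

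Hsd3b7 (1370433_at), which oxidises the ring after the 7-hydroxylation of either route, was the member whose 2 upper doses lay apart. Its levels were 9.72, 9.78, 9.43 and 9.28 at 15 mg/kg. Those at 50 mg/kg were 9.98, 10.11, 10.34, 9.95 and 9.94. All 5 arrays at 50 mg/kg were above all 4 at 15 mg/kg, which was so, in either direction, for 2.86% of all probe sets. In vehicle Hsd3b7 read 10.01, 9.24, 10.00, 10.22 and 9.82, and at 0.1 mg/kg it read 10.01, 9.19, 10.28, 9.56 and 10.29. Both of these groups overlap both upper doses. At 50 against 15 mg/kg Hsd3b7 differed by 0.51 (SE 0.214, 95% interval 0.06 to 0.96, 1.42-fold, unadjusted p = 0.0286), which did not pass after adjustment (limma adjusted p = 0.596). The exact two-sided permutation test gave an unadjusted p of 0.00794, the smallest that 5 against 4 arrays can give. The lowest Hsd3b7 value at 15 mg/kg was in replicate 5, the array with raised bile duct, intestine and pancreas markers, and without it the difference was 0.42 (limma adjusted p = 0.836). The part of those transcripts was not tested. Against vehicle, Hsd3b7 was 0.21 higher at 50 mg/kg (adjusted p = 0.654) and lower by 0.30 at 15 mg/kg (-0.30, SE 0.214, adjusted p = 0.628). Without the pair the first of these was 0.05 (adjusted p = 0.906) and the second -0.46 (unadjusted p = 0.0092, adjusted p = 0.479).

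Akr1d1, the steroid 5-beta-reductase that bends the ring system, had 2 probe sets, which disagreed in sign at 50 and 15 mg/kg against vehicle. The leading one (1398310_at) read 11.50, 10.89, 11.11, 10.90 and 11.34 in vehicle. With 50 mg/kg it read 11.01, 11.26, 11.07, 10.80 and 11.15. The difference was -0.09 (SE 0.144, adjusted p = 0.796), and -0.15 without the pair. The other (1392384_s_at) read 10.39, 9.89, 10.60, 10.31 and 10.67 in vehicle and 10.61, 10.76, 10.50, 10.39 and 10.43 at 50 mg/kg, a difference of 0.16 (SE 0.172, adjusted p = 0.677). The probe sets of Akr1d1 gave -0.06 and 0.33 at 15 mg/kg (adjusted p = 0.893 and 0.55), so no direction can be given for those doses. They gave 0.07 and 0.04 at 0.1 mg/kg, and -0.03 and -0.16 between 50 and 15 mg/kg.

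Amacr (1367775_at), the racemase that sets the side chain's configuration, read 12.44, 12.23, 12.51, 12.85 and 12.70 in vehicle. The 50 mg/kg arrays read 12.21, 12.42, 12.65, 12.48 and 12.57. The groups overlapped almost entirely, with a difference of -0.08 (SE 0.136, -0.37 to 0.21, adjusted p = 0.806), and -0.16 without the pair (adjusted p = 0.568).

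Acox2 (1371137_at), the peroxisomal oxidase of the bile acid side chain, read 10.80, 10.35, 10.98, 10.71 and 10.60 in vehicle. Its 50 mg/kg values were 11.36, 10.91, 11.10, 10.78 and 11.01. Only 2 vehicle arrays reached into the range of the 50 mg/kg group. The difference was 0.35 (SE 0.213, -0.10 to 0.79, adjusted p = 0.455), and 0.26 without the pair (adjusted p = 0.596). The exact permutation test alone gave an unadjusted p of 0.0397 for Acox2. At 0.1 mg/kg Acox2 read 11.74, 10.30, 10.82, 10.67 and 11.04. Its highest level of all 19 arrays was in the library labelled 0.1 mg/kg replicate 1, the one with high Cyp1a1. The 15 mg/kg arrays gave 11.41, 10.91, 10.76 and 10.57, a range that holds most of the vehicle values.

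Slc27a5 (1387325_at), the bile acyl-CoA synthetase, had the largest difference of all members at 50 mg/kg. In vehicle it read 11.65, 11.49, 11.22, 11.71 and 12.37. The values at 50 mg/kg were 11.59, 11.76, 10.27, 10.35 and 11.01. Replicates 3, 4 and 5 at 50 mg/kg were below every vehicle array, while replicates 1 and 2 lay among them. The 0.1 mg/kg arrays (11.11, 11.49, 11.41, 12.02 and 11.90) and the 15 mg/kg arrays (11.56, 11.31, 11.45 and 11.48) overlapped vehicle. The means, 11.69 ± 0.425, 11.59 ± 0.371, 11.45 ± 0.105 and 11.00 ± 0.684 (SD), descended with dose, but no neighbours in this order differed beyond their spread. At 50 mg/kg Slc27a5 differed from vehicle by -0.69 (SE 0.27, 95% interval -1.26 to -0.12, 1.62-fold lower, unadjusted p = 0.0197), which did not pass after adjustment (limma adjusted p = 0.223). The exact permutation test gave p = 0.103. The value for Slc27a5 was -0.74 without the pair, in which it read 11.49 in both arrays. Replicate 3 at 50 mg/kg, its lowest array, had the raised kidney mean of 7.08, and replicate 4, the next lowest, had 4.39. The part of kidney transcripts, or of other cell types, in these low values was not tested. Without 50 mg/kg replicate 3 the difference in Slc27a5 was -0.51 (limma adjusted p = 0.365), and without vehicle replicate 5, its highest array, it was -0.52 (0.416).

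Baat (1387508_at), which conjugates bile acids with taurine or glycine, read 12.18, 12.03, 12.49, 12.30 and 12.74 in vehicle. At the top dose it read 12.55, 12.59, 12.33, 12.50 and 12.26, within the span of the vehicle arrays. The difference was 0.10 (SE 0.127, -0.17 to 0.37, adjusted p = 0.739), and 0.02 without the pair.

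Of the 10 members, 0 passed at 50 mg/kg against vehicle, where 1.61% of all probe sets did. No probe set passed at 15 mg/kg, at 0.1 mg/kg or between 50 and 15 mg/kg (0% each), and 0.325% passed the test of any difference, again with 0 members. Cyp1a1 too did not pass at 15 mg/kg, where it read 13.16 to 14.17 against 7.10 to 8.36 in vehicle. Without 0.1 mg/kg replicate 1, 11 probe sets passed at 15 mg/kg, and with array weights 13 did. At an unadjusted p under 0.05, limma gave 1 member at 50 mg/kg (Slc27a5) beside 15.4% of all probe sets. It gave 0 at 15 mg/kg beside 9.93%, 0 at 0.1 mg/kg beside 2.46%, 1 between 50 and 15 mg/kg (Hsd3b7) beside 7.79%, and 0 for any difference beside 10.5%. The exact permutation test gave 1 member under 0.05 at 50 mg/kg (Acox2) beside 15.3%, 0 at 15 mg/kg beside 9.29%, 0 at 0.1 mg/kg beside 2.23%, and 1 between 50 and 15 mg/kg (Hsd3b7) beside 8.12%, all unadjusted. The median difference of the members was 0.12 at 50 mg/kg, with 7 above and 3 below vehicle, beside a median of 0.02 over all probe sets. The medians at 15 and 0.1 mg/kg were -0.04 and 0.05, both beside 0.02. No member had groups that did not overlap vehicle at 50, 15 or 0.1 mg/kg, beside 4.69%, 3.37% and 0.2% of all probe sets.

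**Figure D2:**
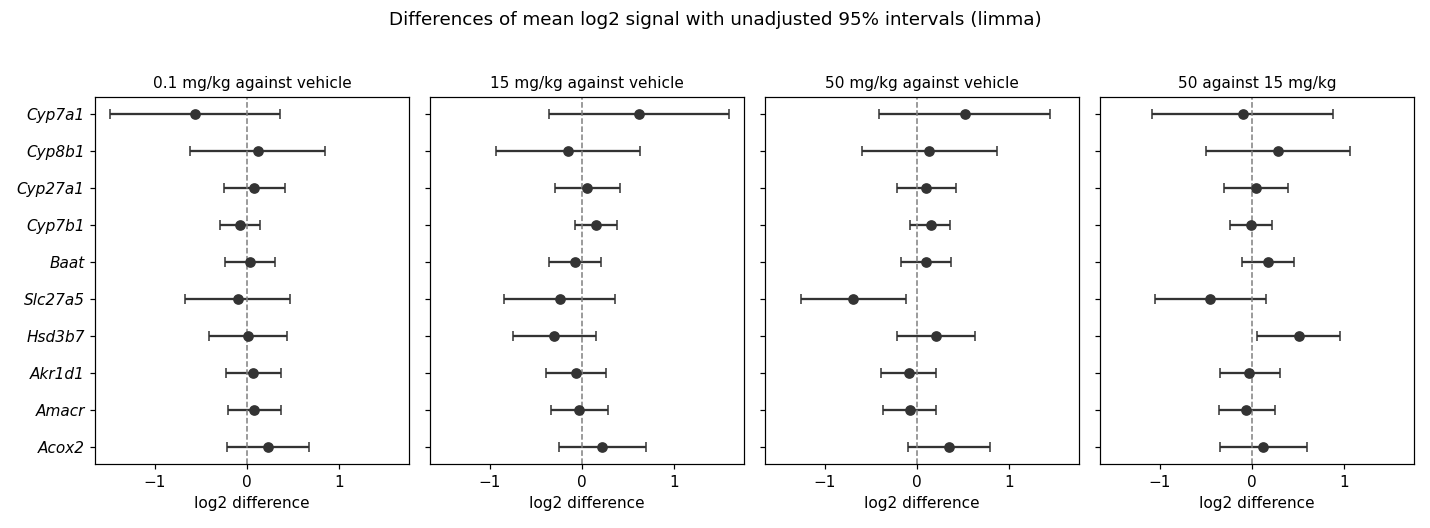
Difference of mean log2 signal (x axis) for each of the 10 enzymes (y axis) in 4 comparisons, with points for limma's estimate and bars for its unadjusted 95% interval. The intervals of Slc27a5 at 50 mg/kg against vehicle (-1.26 to -0.12) and of Hsd3b7 at 50 against 15 mg/kg (0.06 to 0.96) do not cross 0, and neither passed after adjustment.

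The pair of nearly identical arrays also placed several enzymes at the bottom of their range. In vehicle replicate 2 and 0.1 mg/kg replicate 2 the members differed from each other by 0 to 0.12. Cyp7a1, Cyp27a1, Baat, Hsd3b7 and Acox2 were below all 17 other arrays in both, and no member was above them all. Over all probe sets, 10.6% were below and 9.31% above. Cyp27a1, for example, read 11.16 and 11.17 where the others began at 11.37. The part of the kidney and pancreas transcripts in these low values was not tested.

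**Figure D3:**
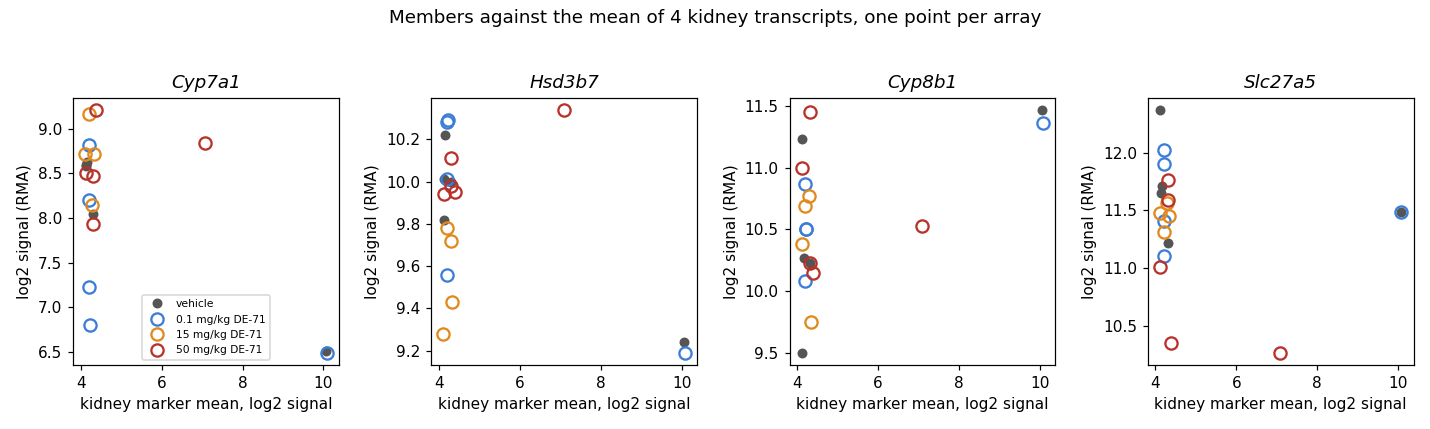
Log2 signal of Cyp7a1, Hsd3b7, Cyp8b1 and Slc27a5 (y axis, separate scales) against the mean log2 signal of 4 kidney markers (x axis), 1 point per array, coloured by dose. Vehicle replicate 2 and 0.1 mg/kg replicate 2 lie together at about 10.06 to 10.08, at the bottom for Cyp7a1 and Hsd3b7, near the top for Cyp8b1 and in the middle for Slc27a5.

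Between arrays of the same dose, some enzymes were correlated past the threshold only while the pair of similar arrays was kept. Over deviations from the dose group means of all 19 arrays, 4 of 45 pairs passed by Pearson's r in a permutation test within groups, adjusted over the 45 pairs. Cyp27a1 with Amacr had r = 0.84 and rho = 0.72 (adjusted permutation p = 0.0139 and 0.0992), and r was 0.74 without the 2 arrays farthest from the median. Hsd3b7 with Amacr had r = 0.79 and rho = 0.66 (adjusted permutation p = 0.0139 and 0.0992). Cyp27a1 was also correlated with Hsd3b7 (r = 0.79, rho = 0.64) and with Baat (r = 0.75, rho = 0.63), both at an adjusted permutation p of 0.0344 for r. No pair passed by Spearman's rho, and none by either measure in the 17 arrays without the pair, where r was 0.69 for Cyp27a1 with Amacr, 0.63 for Cyp27a1 with Baat, 0.58 for Hsd3b7 with Amacr and 0.48 for Cyp27a1 with Hsd3b7. The passing of these relations thus rests on the pair. The share that passes among pairs of other genes is not given here, so the count does not set the enzymes apart. Cyp8b1 with Amacr had r = -0.65 in 19 arrays (adjusted permutation p = 0.0676) and -0.47 in 17 (0.526), and did not pass in either. In all 19 arrays Cyp7a1 showed r between -0.47 and 0.40 with the other 9 members.

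**Figure D4:**
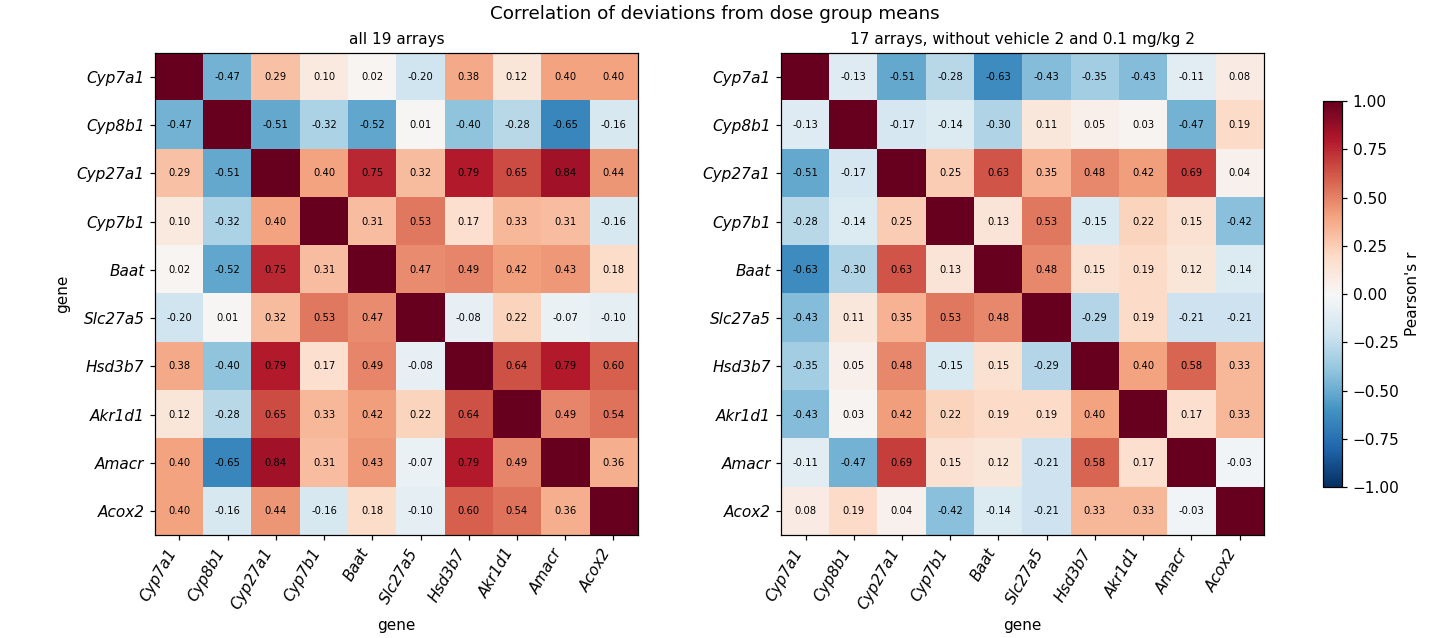
Pearson's r between the 10 enzymes (x and y axes) over deviations from dose group means, in all 19 arrays (left) and in 17 arrays without vehicle replicate 2 and 0.1 mg/kg replicate 2 (right). Red is positive and blue negative; Cyp27a1 with Amacr falls from 0.84 to 0.69 and Cyp7a1 with Baat goes from 0.02 to -0.63.

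The promoter sequences of the 4 enzymes in the pairs that passed over 19 arrays, Cyp27a1, Amacr, Hsd3b7 and Baat, are shown so that they can be set beside that pattern. They are the 250 bases before the annotated start from RefSeq (GRCr8), 5′ to 3′. A promoter was found for 7 of the 10 members; Cyp7a1, Cyp7b1 and Akr1d1 were not matched. Capitals mark matches, on either strand, to 7 motifs. The nuclear receptor half-site was searched as AGGTCA, the motif of the bile acid regulator LRH-1 as CAAGGTC, which can overlap the half-site, and that of the liver factor HNF4 as CAAAGTC. The others were the E-box of clock factors, searched as CACGTG, the TATA box as TATAAA, the CCAAT box by its own letters, and the GC-box of Sp factors as GGGCGG. The windows are at chr9:83713282-83713531 (plus strand), chr2:61673085-61673334 (plus strand), chr1:191842438-191842687 (plus strand) and chr5:68656138-68656387 (minus strand).
Cyp27a1: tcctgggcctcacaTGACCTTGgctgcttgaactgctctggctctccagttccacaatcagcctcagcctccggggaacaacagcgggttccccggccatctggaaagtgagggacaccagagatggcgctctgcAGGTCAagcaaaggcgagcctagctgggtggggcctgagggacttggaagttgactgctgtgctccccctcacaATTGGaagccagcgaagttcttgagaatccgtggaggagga
Amacr: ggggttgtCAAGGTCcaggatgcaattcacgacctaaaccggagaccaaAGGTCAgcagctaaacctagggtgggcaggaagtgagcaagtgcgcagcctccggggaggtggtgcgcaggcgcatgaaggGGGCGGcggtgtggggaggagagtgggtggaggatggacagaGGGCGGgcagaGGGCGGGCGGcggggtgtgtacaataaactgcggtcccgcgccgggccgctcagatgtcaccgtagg
Hsd3b7: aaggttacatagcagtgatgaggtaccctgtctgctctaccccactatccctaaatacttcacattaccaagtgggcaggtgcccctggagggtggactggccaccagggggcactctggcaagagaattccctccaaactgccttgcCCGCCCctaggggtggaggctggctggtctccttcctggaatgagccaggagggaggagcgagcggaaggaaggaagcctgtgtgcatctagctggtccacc
Baat: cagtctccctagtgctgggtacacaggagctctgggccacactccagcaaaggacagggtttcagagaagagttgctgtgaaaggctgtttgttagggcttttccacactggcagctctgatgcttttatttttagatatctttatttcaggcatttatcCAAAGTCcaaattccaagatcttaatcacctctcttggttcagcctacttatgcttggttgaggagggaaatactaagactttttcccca

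Cyp27a1 held 2 half-sites, starting 236 and 115 bases before the start, the first overlapping an LRH-1 motif at 235, and a CCAAT at 41. Amacr held a half-site at 201, an LRH-1 motif at 242 and 4 GC-boxes, the nearest of them overlapping. Hsd3b7 held a GC-box at 102, and Baat an HNF4 motif at 90. Of the others, Cyp8b1 held an LRH-1 motif at 89 and Acox2 held 2 CCAAT, at 109 and 97, while Slc27a5 had none of the 7 in this window. Among 33469 promoters of the same length, 14.1% held the half-site, 3.61% the LRH-1 motif, 3.95% the HNF4 motif, 34% CCAAT and 30.5% the GC-box. The shares for the E-box and the TATA box were 5.59% and 12.9%. No motif was common to the 4 enzymes, and a match describes letters only, not a bound site.

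Other genes of the pathway were read from lists chosen with earlier results of these data known, so their counts are a description only. Of 11 measured of 12 further bile acid enzymes, 2 rose at 50 mg/kg and 0 fell, with a median difference of 0.08. Over all probe sets, 1.22% rose and 0.383% fell. Akr1c14, a hydroxysteroid dehydrogenase that reduces ring ketones, rose from a mean of 11.98 in vehicle to 12.84 at 50 mg/kg. Its means at 0.1 and 15 mg/kg were 12.22 and 12.47, which did not pass (adjusted p = 1 and 0.445), the first with 12.78 in the library labelled replicate 1. At 50 mg/kg its difference was 0.86 (SE 0.164, limma adjusted p = 0.0132), and its 50 mg/kg arrays (12.63 to 13.04) lay above its vehicle arrays (11.65 to 12.28). Cyp3a23-3a1, a bile acid and drug hydroxylase, rose from 13.38 to 14.22, a difference of 0.83 (SE 0.102, limma adjusted p = 0.00123). Akr1c14 no longer passed when the fit had a block for array number, described with the processing (limma adjusted p = 0.0942). Cyp39a1, an oxysterol hydroxylase, had the largest difference of the list, 0.87, with an adjusted p of 0.286 and overlapping groups (6.16 to 6.91 in vehicle and 6.26 to 7.91 at 50 mg/kg).

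Of 15 measured of 16 genes of bile acid and bile lipid transport, 3 rose and 0 fell at 50 mg/kg. The median difference was 0.18, and over all probe sets 1.22% rose and 0.383% fell. Abcc3, the pump that returns conjugated bile acids to blood, rose from 8.58 ± 0.26 in vehicle to 10.49 ± 0.233 at 50 mg/kg (SD, n = 5 each), a difference of 1.91 or 3.76-fold (limma adjusted p = 0.00369). The means of Abcc3 at 0.1 and 15 mg/kg, 9.01 and 9.79, did not pass, and the first holds a value of 10.30 in the library labelled replicate 1. Abcc2, the canalicular pump for conjugated anions, rose by 1.23, from 8.97 to 10.20 (limma adjusted p = 0.00123). Ephx1, the microsomal epoxide hydrolase, which is on this list though an enzyme, rose by 1.47, from 11.40 to 12.88 (limma adjusted p = 0.00351). Abcb11, the bile salt export pump, differed by 0.34 (adjusted p = 0.393), and Slc10a1, the main bile acid uptake carrier, by -0.12 (adjusted p = 0.55). Neither of these transporters of bile salts across the hepatocyte passed.

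No gene passed among 15 measured of 17 regulators at 50 mg/kg (median 0.07), nor among 6 measured of 12 genes of cholesterol supply (median -0.03). Nr1h4, the bile acid receptor FXR, differed by -0.01 (adjusted p = 0.993) and its target Nr0b2 by 0.10 (adjusted p = 0.891). The largest difference was in Nr1h3, the oxysterol receptor LXR alpha, at 0.58 (SE 0.189, adjusted p = 0.136). Nr1i2, the xenobiotic receptor PXR, and Ppara each differed by 0.24 (adjusted p = 0.512 and 0.384). In cholesterol supply the largest were Insig1, which restrains sterol synthesis, at 0.31 (adjusted p = 0.64) and the cyclase Lss at 0.22 (adjusted p = 0.504). No member of these 4 lists passed at 15 mg/kg, at 0.1 mg/kg or between 50 and 15 mg/kg.

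The genes most like Cyp7a1 between arrays of a dose were Fam163b (r = 0.85), Abitram (r = 0.83) and Zic1 (r = 0.82), over deviations in 19 arrays. Without the pair their r was 0.73, 0.70 and 0.73. For Cyp7b1, whose lowest value was also in vehicle replicate 2, they were Cast (r = 0.89), Cyyr1 (0.87) and Ndfip2 (0.85), with r of 0.90, 0.86 and 0.87 without the pair. Cyp7b1 signals were close to the lowest of any probe set, so its r values hold little information on change. These are the 3 highest of 14217 genes each and are a description, with no test.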

How the data were processed

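Liver RNA (100 ng per sample, per the labels' protocols) was hybridised to 19 Affymetrix Rat230_2 arrays. The deposited values are log2 signals, and RMA is named in the submitters' processing notes, without a version. Such values compress folds of low and of very high signals. Array medians lay between 6.05 and 6.16, and the number of arrays limits the precision.

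Of 31099 probe sets, 57 controls were left out and 31042 tested. The annotation gave 20826 of these 1 symbol, 436 several and 9780 none, and 20758 matched a RefSeq gene by ID. Where a gene had several probe sets, the one with the highest mean leads. limma 3.58.1 (R 4.3.3) fitted 1 mean per dose over all arrays (15 residual and 2.78 prior degrees of freedom), with two-sided moderated tests and Benjamini-Hochberg adjustment per comparison at 0.05. The series' design text names R/maanova for comparing the doses with vehicle; it was not used here, and 50 against 15 mg/kg was added. Exact permutation tests compared 2 groups at a time. Correlations used 100000 permutations within dose groups. The fit was tested on simulated data. Nothing in the labels says that arrays come from separate animals, so the p-values rest on the spread between arrays, which may be technical.

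The members and lists were chosen with earlier results of these data known. The text names all members, list genes that passed or were among the 2 largest differences at 50 mg/kg, and the 3 genes most like Cyp7a1 and like a member whose arrays stood apart. Abcb11, Slc10a1, Nr1h4, Nr0b2 and Slc12a1 were named after their values were seen. Alternatives were fits of the compared groups only, other variance priors, a filter at the median level, cyclic loess, centring and the mean of a gene's probe sets. Others were array weights, a replicate block, a block for array number and arrays left out. The array numbers are from the descriptions, and 1 to 8 are here called early and 9 to 20 late. Those names are the report's own, and the numbers may not follow the order of the run. The alternatives that leave out the pair of similar arrays were added after the data had been seen.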

Additional observations from a re-analysis of the deposited data

Results flagged for a closer look

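Cyp7a1 in vehicle replicate 2 read 6.51, far below the other 4 vehicle arrays (8.04 to 8.63), a gap of 0.722 of the group's range. Cyp7b1 was lowest in the same array, at 3.14 against 3.39 to 3.47, a gap of 0.747, though close to the lowest value of any probe set (2.40). Both gaps exceed the 95% critical value of 0.71 for 5 samples in Dixon's test, and 2 of 40 groups did so, which is about the 1 in 20 that chance gives. Vehicle replicate 2 is the array that carried kidney and pancreas transcripts and was nearly identical to 0.1 mg/kg replicate 2, in which Cyp7a1 read 6.49 and Cyp7b1 3.26. The part of those transcripts in the low values was not tested.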

How the results depend on the processing

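Over 32 alternative settings none of the 1575 refits of a member passed the threshold, and the lowest adjusted p was 0.117, for the test of any difference in Cyp7a1 without vehicle replicates 1 and 2 and 0.1 mg/kg replicate 1. Of 1276 refitted differences 65 changed sign, all from a difference of at most 0.23. Without those 3 arrays Cyp27a1 gave -0.05, -0.09 and -0.06 at 50, 15 and 0.1 mg/kg against vehicle, Baat -0.06 at 50 and -0.09 at 0.1, Cyp8b1 0.39 at 15, and at 0.1 mg/kg Hsd3b7 gave -0.18, Amacr -0.08 and Acox2 -0.06. Leaving out the pair, with or without the high Cyp1a1 array, gave Cyp27a1 -0.0081 at 50 and -0.05 at 15, and Cyp8b1 0.09 at 15; with that array out too, Slc27a5 at 0.1 was 0.04. Array weights gave Cyp8b1 0.14 at 15, and Baat -0.007 and Hsd3b7 -0.02 at 0.1. The mean of both Akr1d1 probe sets gave 0.04 at 50 and 0.13 at 15. Between 50 and 15 mg/kg Cyp7b1 was 0.01 with cyclic loess, 0.01 with centring and 0.07 with the block for array number, which gave Acox2 -0.13. The cause of these sign changes was not tested.

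With each array left out in turn, 18 differences changed sign at least once. Against vehicle at 50 mg/kg the ranges were -0.13 to 0.36 for Cyp8b1 and -0.0081 to 0.18 for Cyp27a1. At 15 mg/kg they were -0.41 to 0.09 for Cyp8b1, -0.05 to 0.16 for Cyp27a1, -0.16 to 0.02 for Baat, -0.13 to 0.02 for Akr1d1 and -0.11 to 0.05 for Amacr. At 0.1 mg/kg they were -0.14 to 0.35 for Cyp8b1, -0.05 to 0.21 for Cyp27a1, -0.06 to 0.13 for Baat, -0.22 to 0.07 for Slc27a5, -0.14 to 0.18 for Hsd3b7 and -0.00027 to 0.19 for Amacr. Between 50 and 15 mg/kg they were -0.28 to 0.07 for Cyp7a1, -0.05 to 0.09 for Cyp27a1, -0.11 to 0.09 for Cyp7b1, -0.10 to 0.04 for Akr1d1 and -0.13 to 0.0074 for Amacr. Slc27a5 at 50 mg/kg lay between -0.88 and -0.51, and Cyp7a1 between 0.13 and 0.68 at 50, 0.23 and 0.80 at 15 and -0.95 and -0.31 at 0.1 mg/kg.

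With the block for array number, differences at 50 mg/kg were 0.25 for Cyp7a1 (limma adjusted p = 0.888), -0.61 for Slc27a5 (0.469) and 0.07 for Acox2 (0.937). Within the early arrays (4 against 1) Slc27a5 differed by -0.66 and Cyp8b1 by -0.64, and within the late ones (1 against 4) by -0.69 and 0.63. Only 1 of the further bile acid enzymes passed at 50 mg/kg with that block. Abcc2, Abcc3, Ephx1 and Cyp3a23-3a1 passed under all 32 alternatives, Akr1c14 under 31. With a replicate block Cyp7a1 differed by 0.52 at 50 mg/kg (limma adjusted p = 0.401) and 0.76 at 15 mg/kg (0.344), and no member passed. The deviations of same-numbered arrays of different doses had a median r of 0.0361 over 27 pairs, from -0.534 to 0.889. Differently numbered arrays had a median r of 0.00163 over 108 pairs, from -0.577 to 0.658. The medians gave no sign that the numbers pair the samples, but cannot exclude a pairing that touches few genes. Over all probe sets the count of calls at 50 mg/kg, 499, was 57 with the block for array number, 921 with array weights, 253 without the 3 arrays and 178 to 704 with each array left out.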

Other observations

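The library labelled 0.1 mg/kg replicate 1, in which Cyp1a1 read 14.06, also stood with the upper doses in other genes. Abcc3 read 10.30 there against 8.24 to 9.08 in the other 4 arrays of its group, Ephx1 12.72 against 11.09 to 11.68, and Akr1c14 12.78 against 11.63 to 12.37. Cyp3a23-3a1 read 14.06 against 13.36 to 13.52. Among the members, Acox2 (11.74 against 10.30 to 11.04) and Cyp7a1 (8.82 against 6.49 to 8.20) were above the rest of the group. Cyp8b1 (10.08 against 10.50 to 11.36), Slc27a5 (11.11 against 11.41 to 12.02) and Cyp7b1 (3.17 against 3.26 to 3.43) were below it. Between arrays of the same dose, Acp2 (r = 0.93), Glrx (r = 0.92) and Ephx1 (r = 0.91) were the genes most like Acox2 over 19 arrays, and r was 0.90, 0.91 and 0.89 without the pair.

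Without that array and the pair, Cyp7a1 at 0.1 mg/kg was left with 8.20, 7.23 and 6.80, and differed from vehicle by -1.05 (SE 0.327, unadjusted p = 0.00564, limma adjusted p = 0.974). The test of any difference gave F = 6.29 (unadjusted p = 0.00558, adjusted p = 0.165). These 3 arrays were left out after their values were known, and the adjusted p of the 0.1 mg/kg comparison ranged from 0.79 to 1 over all alternatives.

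Correlations of the 10 members with 15 regulators, added after the data had been seen, gave 17 of 150 pairs past an adjusted permutation p of 0.05 over all 19 arrays by Pearson's r, of which 9 also passed by rho. None passed in the 17 arrays without the pair. Here too the share among pairs of other genes is not given, so the count does not set the enzymes apart. The highest positive r with both measures past was for Cyp27a1 with Nr1d1, a clock repressor, at 0.85 in 19 arrays and 0.66 in 17, followed by Amacr with Nr1i3, the xenobiotic receptor CAR, at 0.84 and 0.75. The lowest was for Cyp8b1 with Dbp, a clock output factor, which had r = -0.82 and rho = -0.79 in 19 arrays (adjusted permutation p = 0.0112 and 0.0394), and r = -0.73 and rho = -0.69 in 17 (0.253 and 0.277). The other 6 pairs past by both measures lay between 0.70 and 0.81 in size in 19 arrays.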
